A study of Mus musculus with 3 samples.

Results

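Genes of peripheral nerve, Schwann cells and the autonomic nervous system were followed in the mouse genital tubercle, from which the penis or clitoris develops. The list held 36 genes named by role, of which 35 were measured, out of 18193 genes with a symbol on the array. Every probe set annotated to exactly 1 of these symbols was taken, which gave 92 probe sets. Ntf3 was not analysed here. The tissue came from 3 embryos of embryonic day 14 (Theiler stage 22), all given as male, and each was measured unpooled on its own array. The mothers were of the FVB/N strain and the sires carried the SMAA/EYFP transgene, a yellow fluorescent reporter whose expression guided the dissection. The 3 samples form 1 group with no control, and the labels differ only in the limb landmark, which was visible single fingers in replicate 3 and indented footplates in replicates 1 and 2.

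In peripheral nerves the cell bodies of sensory and autonomic neurons lie in ganglia, while their axons run into the target organ in the company of Schwann cells. RNA of a dissected target therefore holds the full transcripts of glial cells but, of the neurons, only what is carried in axons, unless a ganglion is included. Schwann cell precursors depend on neuregulin from axons, read by the receptor pair Erbb2 and Erbb3, and neurons depend on neurotrophins and on ligands of the Gdnf family made by the target. Pelvic autonomic neurons supply the erectile tissue of the adult organ. Many of these genes are also used by epithelium, mesenchyme or muscle, so a signal from whole tissue does not name the cell that made it.

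Signals are given as deposited, in linear array units, and differ in meaning between probe sets, so levels are compared only between samples and not between genes. Genes from outside the list are named by a rule on their signal, which sets no order of expression. A signal was called above background when it exceeded 135.8, 253.1 and 197 units in replicates 1, 2 and 3, the 95th percentile of olfactory, vomeronasal and taste receptor probe sets in that array. In replicate 3 the X-inactivation RNA Xist read 61883 against 8.05 and 118 in replicates 1 and 2, and the Y-linked Eif2s3y read 37.9 against 4384 and 3738, which goes against its male label. Replicates 1 and 3 stood apart in opposite directions in liver genes, whose summed signal was 113802, 52303 and 9261 in replicates 1, 2 and 3, and in skeletal muscle genes, whose summed signal was 27352, 8509 and 3598. The ratio of the 3′ to the 5′ control probe set of Actb, a gauge of transcript length, was 7.38, 2.21 and 4.42. Results are therefore also given without single replicates where that changes them. With 3 arrays the precision of every value is limited, and in whole tissue fewer cells of a type and less RNA per cell cannot be told apart.

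Promoters are shown for a neuronal gene and a trophic ligand that were each above background in a single embryo, Elavl3 and Gdnf, and for the autonomic enzyme gene Th, which was above it in none. They are from RefSeq, build GRCm38.p6, and run from 250 bases before the gene's start to 50 bases after it, 5′ to 3′ on the gene's strand. The table held a promoter for 23 of the 36 listed genes. Capitals mark matches to TATAAA (the TATA box), TGACGTCA (the cAMP response element) and CAGCTG (an E-box), searched on both strands with no overlap among the matches shown.
Elavl3, chr9:22051974-22052273, minus strand: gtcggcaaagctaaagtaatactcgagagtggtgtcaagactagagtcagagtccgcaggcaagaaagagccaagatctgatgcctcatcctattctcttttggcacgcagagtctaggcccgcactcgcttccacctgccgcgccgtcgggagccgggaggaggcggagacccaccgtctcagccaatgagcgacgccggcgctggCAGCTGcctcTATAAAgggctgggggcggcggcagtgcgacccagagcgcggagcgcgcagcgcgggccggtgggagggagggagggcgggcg
Gdnf, chr15:7809798-7810097, plus strand: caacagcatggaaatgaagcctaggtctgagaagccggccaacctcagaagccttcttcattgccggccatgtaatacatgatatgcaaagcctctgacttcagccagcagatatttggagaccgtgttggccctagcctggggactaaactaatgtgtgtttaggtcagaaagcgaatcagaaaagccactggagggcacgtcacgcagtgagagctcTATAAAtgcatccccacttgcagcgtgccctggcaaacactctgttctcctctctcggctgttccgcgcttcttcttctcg
Th, chr7:142899946-142900245, minus strand: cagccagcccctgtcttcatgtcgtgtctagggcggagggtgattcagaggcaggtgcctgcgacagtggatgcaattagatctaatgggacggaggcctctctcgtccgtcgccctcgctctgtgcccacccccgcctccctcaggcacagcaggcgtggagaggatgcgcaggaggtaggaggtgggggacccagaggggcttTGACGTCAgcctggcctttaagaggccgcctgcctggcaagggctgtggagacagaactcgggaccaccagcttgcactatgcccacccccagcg
The TATA box letters began 33 bases before the start of Elavl3 and 31 bases before that of Gdnf, and the second listed start of Gdnf held none of the 3 motifs. Letters of the E-box stood just upstream of the TATA box in Elavl3. The cAMP response element letters began 45 bases before the start of Th. TATAAA is in 13.6% of the 32851 promoters of the same length in the table, CAGCTG in 16.3% and TGACGTCA in 1.79%. Among the listed genes with a promoter, TATAAA was found in 4 (Elavl3, Gdnf, Prph and Cntn1), CAGCTG in 9 and TGACGTCA in 1, Th. A gene was counted when any of its promoters held the match, whereas the percentages count single promoters. The counts are therefore not compared with those shares. A match describes the letters and is not evidence of binding.

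Of the 35 genes measured, 22 were above background in every sample, 3 in 2 samples, 3 in 1 sample and 7 in none. The 6 genes above background in some samples compare with 12.8% of all genes on the array. The share above background in every sample was near that of the array, where 60.5% of all genes were above background in every sample, and so the count says nothing particular about the list. The count was 23 after leaving out replicate 1, 2 or 3. Receptors of trophic factors had 6 of 7 genes above background in every sample, adhesion molecules 3 of 4, and neuronal cytoskeleton, RNA-binding and vesicle genes 8 of 12. Autonomic genes had 2 of 4, trophic ligands 2 of 5 and glial genes 1 of 3.

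**Figure D1:**
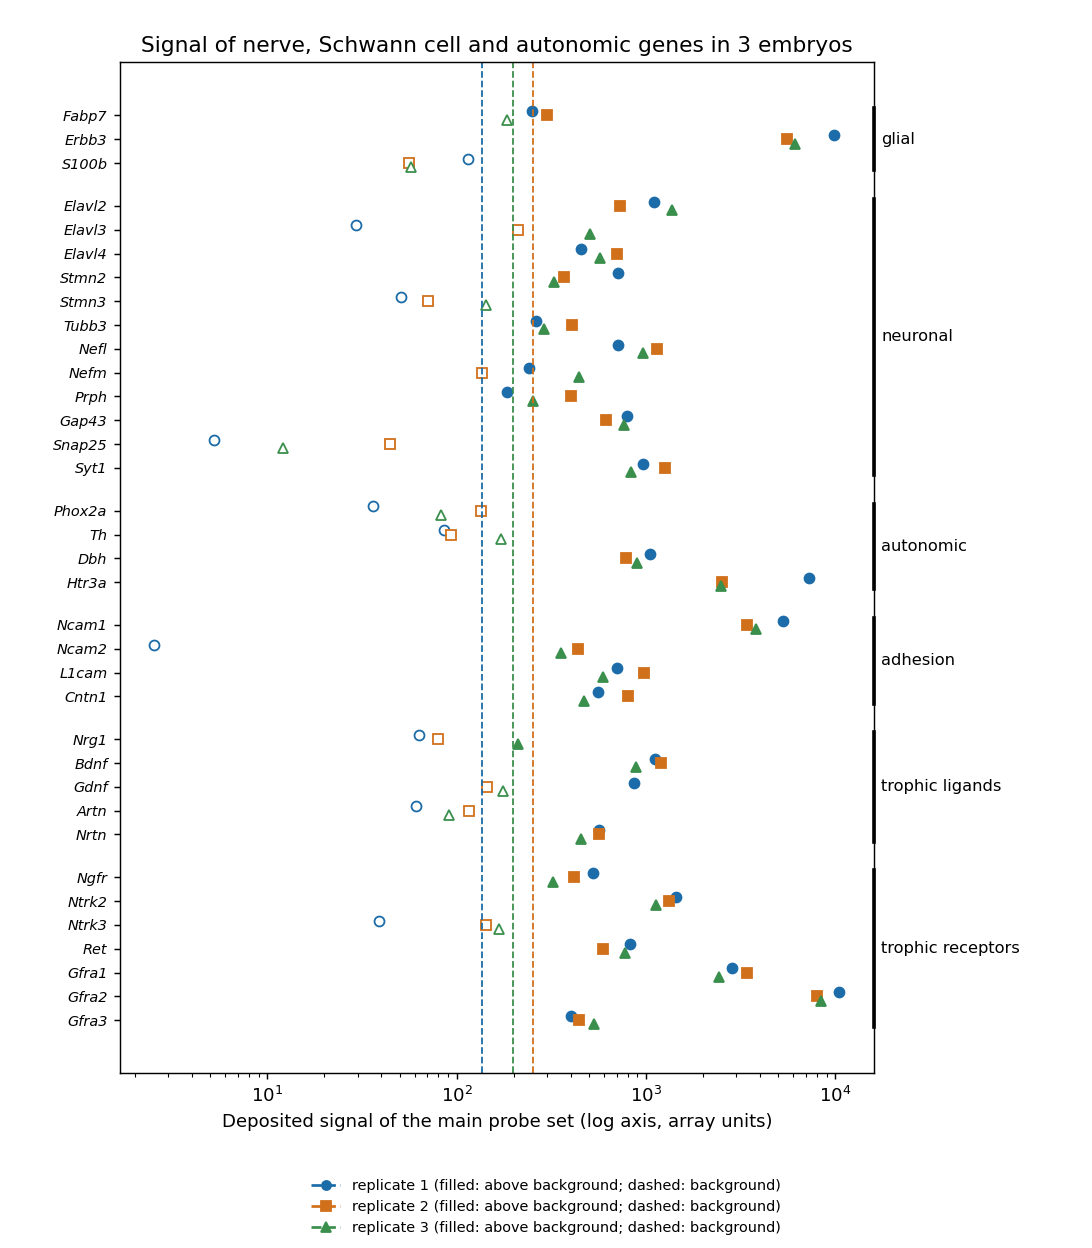
Deposited signal of the main probe set of each gene (log axis, array units) in replicates 1, 2 and 3, grouped by role; filled symbols lie above and open symbols at or below the background of that array, which the dashed lines mark. Htr3a and Gdnf have replicate 1 well to the right of the others and Ncam2 has it well to the left, while S100b, Stmn3, Snap25, Phox2a, Th, Artn and Ntrk3 are open in all 3 samples.

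Erbb3, the neuregulin receptor of Schwann cells and their precursors, was the 1 glial gene above background in every embryo. Its signal was 9777, 5572 and 6116 in replicates 1, 2 and 3. Replicate 1 was higher than both others, by 0.90 ± 0.48 on the aligned log2 scale (limma, difference from the mean of the others ± SE), and the adjusted p was 0.608. Epithelial genes, measured beside it because epithelia can also express Erbb3, were higher in replicate 1 for 9 of 9 genes with a median of 0.48, where 70.8% of all genes were higher there with a median of 0.27. The part of epithelium in the Erbb3 difference was not tested. A second Erbb3 probe set was above background in no sample. Fabp7, a fatty acid binding protein of Schwann cell precursors and radial glia, read 249, 299.9 and 185. Replicates 1 and 2 exceeded background. Each stood at least 1.34-fold above replicate 3, the library that goes against its male label, on the aligned scale. With background at the 90th percentile Fabp7 was above it in 3 samples, and at the 99th in 1. The bound thus depends on the percentile chosen. S100b, a calcium-binding protein of more mature Schwann cells, read 114, 55.9 and 57.2 and was above background in no sample. Without replicate 3, glial genes above background in every sample numbered 2 of 3.

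Intermediate filament and microtubule genes of axons were mostly above background. Nefl, the light neurofilament subunit, read 711, 1148 and 965, a mean of 941 ± 219.6 (SD, n = 3), and its other probe set read 515, 489.8 and 1368. The probe sets therefore put different embryos highest, replicate 2 on the first and replicate 3 on the second. Nefm, the medium subunit, read 240.3, 135 and 441, with replicates 1 and 3 over background and each at least 1.11-fold higher than replicate 2 on the aligned scale. Prph, the intermediate filament of peripheral sensory and autonomic neurons, read 184, 402 and 253 on its brightest probe set. That probe set has a name ending in _x_at, which marks probes that can bind other transcripts. On the next probe set (122, 334 and 259) Prph was above background in replicates 2 and 3 only. Both lack a sequence accession in the annotation. The other 2 Prph probe sets were above background in no sample, and the 1 with such an accession read 10.6, 79.9 and 44.2. Tubb3, the neuronal β-tubulin, read 261, 407 and 288. Gap43, the growth cone protein, read 795, 617 and 764, with a spread of 0.31 (SD of aligned log2 signals, n = 3).

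The stathmins, which bind tubulin in growing neurites, were unlike each other. Stmn2 read 709.6, 368 and 326 on its main probe set and was highest in replicate 1, by 1.19 ± 0.47 on the log2 scale (limma). Replicates 2 and 3 lay close together there. Its second probe set read 149, 172 and 99.2, above background in replicate 1 only. On it replicate 1 was higher than the others by 0.34 and replicate 2 by 0.32. Stmn3 read 50.7, 70.8 and 142, below background in every sample. The Elavl genes encode the Hu RNA-binding proteins of postmitotic neurons. Elavl2 read 1096, 729 and 1370.1 and Elavl4 read 453, 703 and 573, both above background in every embryo. Elavl3 read 29.4, 209.9 and 505, and replicate 3 alone exceeded background, at least 2.20-fold over each of the others on the aligned scale. Its 3 probe sets included 0 that were above background in every sample. The synaptic vesicle calcium sensor Syt1 read 966, 1252 and 829, whereas Snap25, a membrane partner in vesicle fusion, read 5.24, 44.4 and 12.0 and was above background in no sample on either probe set.

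Markers of autonomic identity divided. Phox2a, the transcription factor of autonomic neurons, read 36.2, 134.9 and 83.0, and Th, the rate-limiting enzyme of catecholamine synthesis whose promoter is shown above, read 86.1, 93.5 and 171, so that neither was above background in any embryo. Dbh, which makes noradrenaline from dopamine, read 1042, 781 and 893 on a probe set with the _x_at ending. Its next probe set, at 138, 166 and 159, exceeded background only in replicate 1. The detection of Dbh in every embryo thus rests on the probe set that can bind other transcripts. Htr3a, a subunit of the serotonin-gated ion channel, was the clearest member of this set. It read 7293, 2521 and 2497, so that replicate 1 stood above replicates 2 and 3, which differed little. The difference was 1.70 ± 0.47 on the log2 scale, or 3.24-fold, with an unadjusted p of 0.0186 and an adjusted p of 0.310 in limma. Its replicate with the high value is also the one with the high liver and skeletal muscle signals, whose part in this was not tested.

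Adhesion molecules of axons and glia were above background in most samples. Ncam1, the neural cell adhesion molecule that is also found on mesenchyme and muscle, read 5260.2, 3396 and 3826 on its main probe set, highest in replicate 1 by 0.70 ± 0.49 (limma, adjusted p = 0.707). Skeletal muscle genes were higher in replicate 1 for 12 of 12 genes, against 70.8% of all genes, and their part was not tested. L1cam, which bundles axons, read 706, 972 and 592, and Cntn1, a contactin of axons, read 555, 802 and 469. Both were highest in replicate 2 and lowest in replicate 3. Ncam2 read 2.53, 436 and 354, so that replicates 2 and 3 exceeded background and each stood at least 2.45-fold over replicate 1 on the aligned scale. A second Ncam2 probe set, at 29.0, 328 and 328, had the same order against background, and the third was above it in no sample. Ncam2 passed the filter through replicates 2 and 3 only and so had to differ from replicate 1, and its difference is not read as a result.

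Of the 5 ligands measured, 2 were above background in every embryo, 2 in a single embryo and 1 in none. Bdnf, the neurotrophin that binds Ntrk2, read 1108, 1199.9 and 887, with an SD of 0.21 on the log2 scale, and its second probe set was also above background throughout, at 849, 828 and 1016. Nrtn, a Gdnf family ligand of parasympathetic neurons of the penis, read 564, 567 and 454. Gdnf itself read 859, 145 and 175 on its only probe set. It was above background in replicate 1 alone, at least 3.97-fold higher there than in either other sample on the aligned scale, with an adjusted p of 0.208 in limma. Nrg1, the neuregulin that Erbb3 reads, was above background in replicate 3 alone (63.3, 79.2 and 210.4), but that signal lies under the background of replicate 2, so no fold is given, and at a background set at the 99th percentile it was above in none. Artn, which acts on sensory and sympathetic neurons, read 61.1, 116.5 and 91.2 and was above background in no sample.

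Receptors for these ligands were present in every embryo with 1 exception. Ret, the signalling receptor shared by the Gdnf family, read 824, 595 and 772. Its co-receptors were Gfra1, which binds Gdnf, at 2831, 3416 and 2430.4, Gfra2, which binds neurturin (the product of Nrtn), at 10488, 7984 and 8364, and Gfra3, which binds artemin (the product of Artn), at 403, 443 and 528. On their main probe sets the log2 SDs of Ret, Gfra1, Gfra2 and Gfra3 ran from 0.19 for Gfra1 to 0.36 for Ret. Another Gfra1 probe set above background in every sample read 538, 1341 and 1244, with replicate 1 lowest and an SD of 0.64. The other Ret probe set read 124, 316 and 306 and was below background in replicate 1. The main Gfra2 probe set carries the _x_at ending and no sequence accession in the annotation. Another probe set of Gfra2 without that ending read 394, 726 and 514, above background in every sample but with replicate 2 highest in place of replicate 1. Ntrk2, the receptor of Bdnf, read 1436, 1326 and 1122, and the low-affinity receptor Ngfr, found on Schwann cell precursors as well as axons, read 527, 418 and 321. Ntrk3, the receptor of Ntf3, read 39.0, 142 and 168, and 0 of its 8 probe sets were above background in any sample.

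The 92 probe sets were less often above background than the genes, because a gene was represented by its brightest probe set. Of them 33 were above background in every sample, where 48.0% of all probe sets on the array were, 6 in 2 samples, 9 in 1 and 44 in none. Among 23 genes with several probe sets, Nefl and Bdnf had all of them above background in every sample, 15 had some and 6 had none. Only 7 of the 35 genes had every probe set above background in every sample, which counts genes with a single probe set. Of 8 genes with more than 1 probe set above background in every sample, Elavl4 was the 1 whose probe sets all put the same embryo highest. For Bdnf, Elavl2, Gfra1, Gfra2, Nefl and Ntrk2 they named 2 different embryos and for Ncam1 all 3. Ncam1 read 5260.2, 3396 and 3826 on the first, 768, 541 and 1292 on the second and 169, 416 and 369 on the third. Differences between embryos of these genes thus depend on the probe set.

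**Figure D2:**
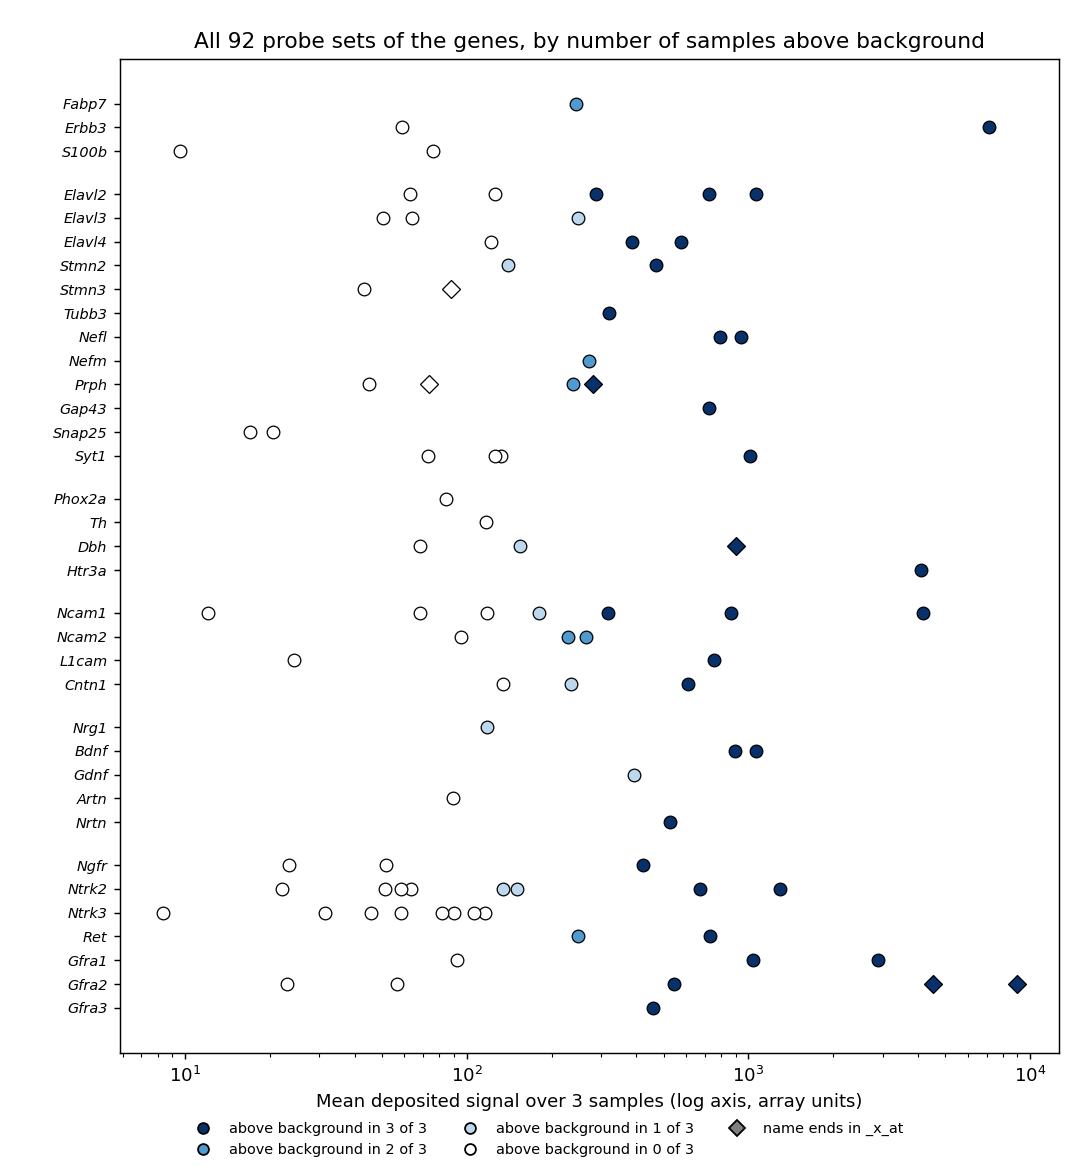
Mean deposited signal over 3 samples (log axis, array units) of each of the 92 probe sets, 1 row per gene; the fill gives the number of samples above background and diamonds mark names ending in _x_at. Ntrk3 has 8 open symbols and Ntrk2 has 2 of 8 above background in every sample, and the brightest probe sets of Dbh, Prph and Gfra2 are diamonds.

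The spread between embryos was described for the 22 genes above background in every sample. Their median SD on the aligned log2 scale was 0.31, against 0.36 over the 21612 probe sets of the array that met the same condition. The 22 values are of the brightest probe set of each gene, whereas the array's were not so chosen. Over all 33 probe sets of listed genes that met the condition the median SD was 0.33. On the main probe sets the SD ran from 0.19 for Gfra1 to 0.98 for Htr3a, and 15 of the 22 lay below the array's median. Most of the list lay at low to middle levels, with 11 genes in the lowest tertile of level (median SD 0.31 against 0.42 for all probe sets there), 6 in the middle (0.24 against 0.37) and 5 in the highest (0.43 against 0.32). The 5 in the highest tertile were Gfra2, Erbb3, Ncam1, Htr3a and Gfra1. Htr3a lay beyond the 90th percentile of probe sets of like level, which was 0.68. Medians by role were 0.65 for 2 autonomic genes, 0.32 for 3 adhesion genes, 0.28 for 8 neuronal genes, 0.27 for 6 receptors and 0.21 for 2 ligands, and Erbb3, the glial gene, had 0.54.

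**Figure D3:**
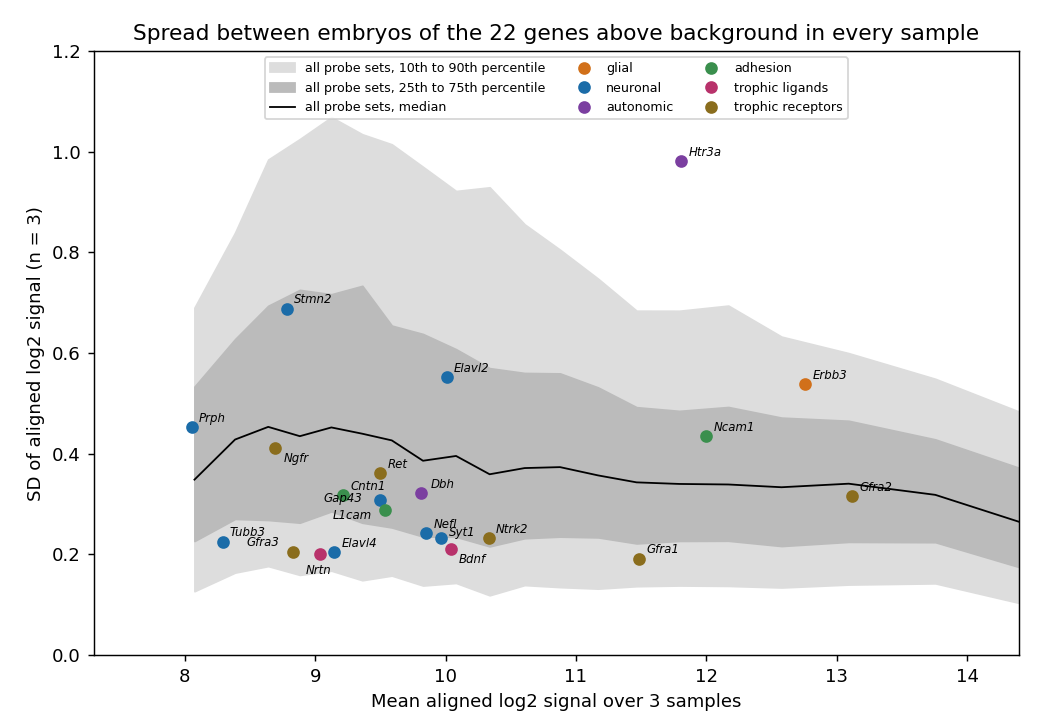
SD of the aligned log2 signal over 3 embryos (vertical axis) against its mean (horizontal axis) for the 22 genes above background in every sample, coloured by role; grey bands give the 10th to 90th and 25th to 75th percentiles and the line the median of all probe sets in bins of level. Htr3a at 0.98 lies above the grey bands, and Gfra1 at 0.19 is the lowest of the genes.

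Glial and neuronal transcripts were set against each other by the order of the embryos. Over the 2 glial genes above background in at least 1 sample the median difference of replicate 1 from the others was 0.57 on the aligned log2 scale, and over 10 neuronal genes it was -0.08. In replicate 2 the medians were -0.18 for glial and 0.28 for neuronal genes, and in replicate 3, whose male label is in doubt, -0.39 and 0.08. All genes had medians of 0.27, -0.20 and -0.01 in replicates 1, 2 and 3. Relative to these, neuronal genes stood at -0.34, 0.49 and 0.10 and glial genes at 0.30, 0.03 and -0.38, values that do not depend on how the samples were aligned. They do depend on which embryos are compared. The relative neuronal value of replicate 3 was -0.21 without replicate 1 and 0.43 without replicate 2. That of replicate 2 was 0.21 without replicate 1 and 0.48 without replicate 3, and that of replicate 1 was -0.43 without replicate 2 and -0.48 without replicate 3. The relative glial value of replicate 2 was 0.28 without replicate 1 and -0.16 without replicate 3. The unadjusted sign of the neuronal median did depend on it, since alignment on all probe sets gave 0.32 in replicate 1 and -0.031 in replicate 2.

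The members of the neuronal list did not move as a block. Replicate 1 was highest for 13 of all 28 listed genes above background in at least 1 sample (53.8% of all genes), replicate 2 for 10 and replicate 3 for 5 (26.2% of all genes). In replicate 1, 5 of the 10 neuronal genes were higher than the mean of the others and 5 lower, where 70.8% of all genes above background in at least 1 sample were higher. Stmn2, Gap43, Elavl2, Nefm and Syt1 were the higher ones and Prph, Nefl, Elavl4, Tubb3 and Elavl3 the lower ones. Replicate 2 held the highest value for 5 of the 10, against 20.0% of all genes. Those were Elavl4, Tubb3, Nefl, Prph and Syt1. Replicate 2 was above the mean of the others for 6 of the 10 (33.8% of all genes) and replicate 3 also for 6 (48.7% of all genes). Limited to the 8 neuronal genes above background in every sample, the medians were -0.08, 0.28 and -0.02. The glial side then rests on Erbb3 alone, at 0.90, -0.66 and -0.24. The 3′ to 5′ ratio of Actb was lowest in replicate 2 and that of Gapdh, at 21.5, 14.9 and 14.1, in replicate 3, while both were highest in replicate 1. The part of transcript length in these orders was not tested.

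**Figure D4:**
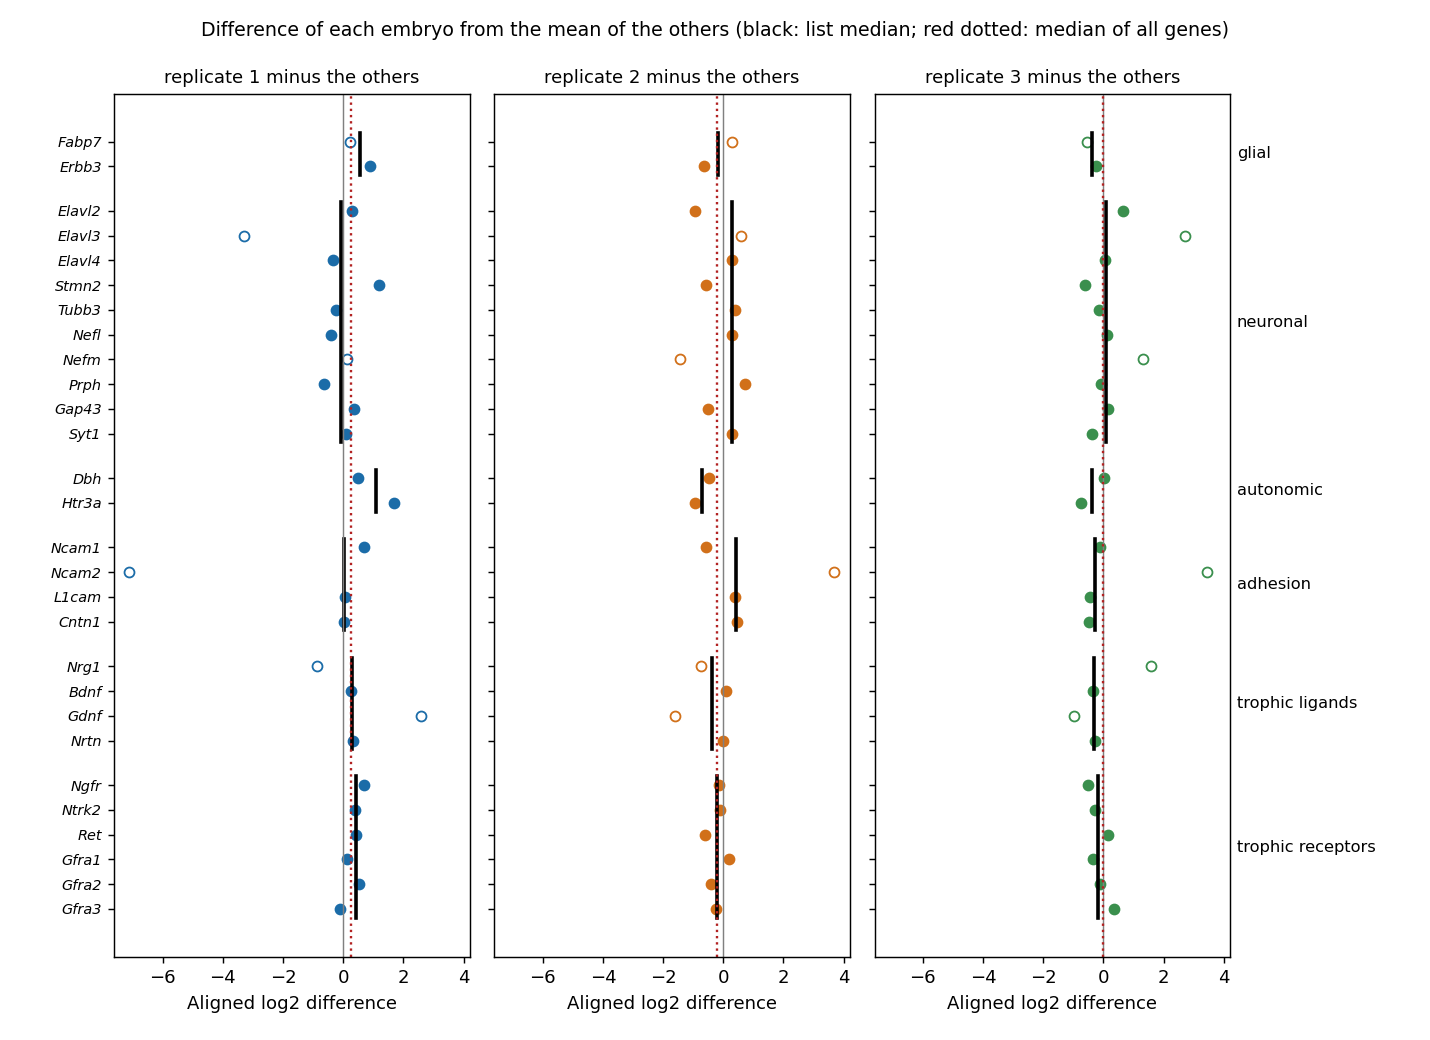
Aligned log2 difference of each embryo from the mean of the others for 28 genes above background in at least 1 sample, 1 panel per replicate; filled points are above background in every sample, black bars are list medians and the red dotted line is the median of all genes. In replicate 1 the neuronal bar (-0.08) lies left of the dotted line (0.27) and the glial bar (0.57) right of it, and the open point at the far left is Ncam2.

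No listed gene was called in limma when any embryo was set against the others, and neither was any other probe set. The contrast of replicate 3 with replicates 1 and 2 follows the landmark label and cannot be told apart from the doubt about its sex. It called 0 of the 28 genes tested, with a background of 0% of 29065 probe sets called at an adjusted p under 0.05, and 0 of the 28 had an unadjusted p under 0.05, against 2.08% of all probe sets. For replicate 2 the counts were 0 and 0, against 5.05%. For replicate 1 they were 0 called and 4 with an unadjusted p under 0.05 (Ncam2, Gdnf, Elavl3 and Htr3a), against 11.4% of all probe sets. All of those except Htr3a had passed the filter through some samples only and so had to differ. Each contrast has 1 residual degree of freedom, so a missing call does not show that the embryos were alike.

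Differences over 2-fold were counted without a test. In replicate 1, 3 of the 28 genes (10.7%) were over 2-fold higher than the mean of the others (Gdnf, Htr3a and Stmn2), against 7.92% of all genes, and 2 (7.14%) over 2-fold lower (Ncam2 and Elavl3), against 4.49%. In replicate 2, 1 gene (3.57%) was over 2-fold higher (Ncam2), against 4.27%, and 2 (7.14%) lower (Gdnf and Nefm), against 7.41%. In replicate 3, 4 (14.3%) were over 2-fold higher (Ncam2, Elavl3, Nrg1 and Nefm), against 4.04%, and 0 lower, against 5.65%. Of these genes Stmn2 and Htr3a were above background in every sample. On the second Stmn2 probe set replicate 1 was higher by only 0.34 on the log2 scale. The rest passed the filter through the samples where they were high, so a count above the array's share is not read as a result.

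Further genes of the Schwann lineage and of neurons were taken from lists drawn up by cell type. Of 17 other Schwann lineage genes, among them the adhesion gene L1cam of the list above, 9 were above background in every sample. That is 52.9%, against 60.5% of all genes. Those named by the rule were Tfap2a, a neural crest and epidermal transcription factor, at 15516 ± 4493 (SD, n = 3), the myelin protein gene Pmp22 at 8612 ± 1107, the endothelin receptor Ednrb at 2378 ± 992, Gpm6b at 2307 ± 1047 and Cnp at 1638 ± 497. Ednrb read 3038, 1237 and 2858 and Gpm6b 3233, 1172 and 2517, so both were lowest in replicate 2. Sox10, the defining transcription factor of the lineage, chosen after its values were seen, read 155, 228 and 266, over background in replicates 1 and 3. The Schwann cell genes Cdh19, Gjc3 and Dhh were above background in no sample. In replicate 2, 12 of 14 genes of this list above background in at least 1 sample were lower than the mean of the others. The other 2 were higher, where 33.8% of all genes were higher, so most genes of the array were lower there too. In replicate 3, 11 of the 14 were higher, with a median of 0.32, where 48.7% of all genes were higher with a median of -0.01. The 2 glial genes had a median of -0.39 there, and Fabp7 among them had passed the filter through replicates 1 and 2 only. Of the 14, 3 were above background in 2 samples and 2 in 1 sample. All of these partly detected genes were higher in replicate 3. The count and the difference from the glial genes are therefore not read as a result.

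Of 23 other neuronal cytoskeleton, vesicle and membrane genes 14 were above background in every sample, which at 60.9% was near the 60.5% of all genes. Those named by the rule were the growth cone protein Basp1 at 54191 ± 5876, Dpysl3 at 38034 ± 4636 (SD, n = 3), Map2, the syntaxin Stx1a and the kinesin Kif5c. Whole tissue does not name the cells that made these signals. Nefh, Stmn4, Syp, Scn9a and Kif1a were above background in no sample. Neuronal transcription factors, which act in the cell body, had 7 of 16 above background in every sample (43.75%) and 9 in none. Those named by the rule, Isl1 (48464 ± 4187), Hand2 (5307 ± 355), Gata3 (4978 ± 1599), Gata2 (1731 ± 169) and Runx3 (1196 ± 158), are also known from mesenchyme, epithelium or blood. The other two, chosen after their values were seen, were the neuronal factors Isl2, at 936, 1215 and 969, and Tlx2, at 142, 442 and 392. Those above background in no sample included Insm1, Tlx3, Pou4f1, Pou4f3, Prrxl1, Neurog1, Neurog2, Neurod1 and St18, factors of sensory and developing neurons. Of 7 brain and spinal cord genes 0 were above background in every sample, and Pax6 was above it in replicate 3 alone. Markers of the central nervous system were thus at or near background in these samples.

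**Figure D5:**
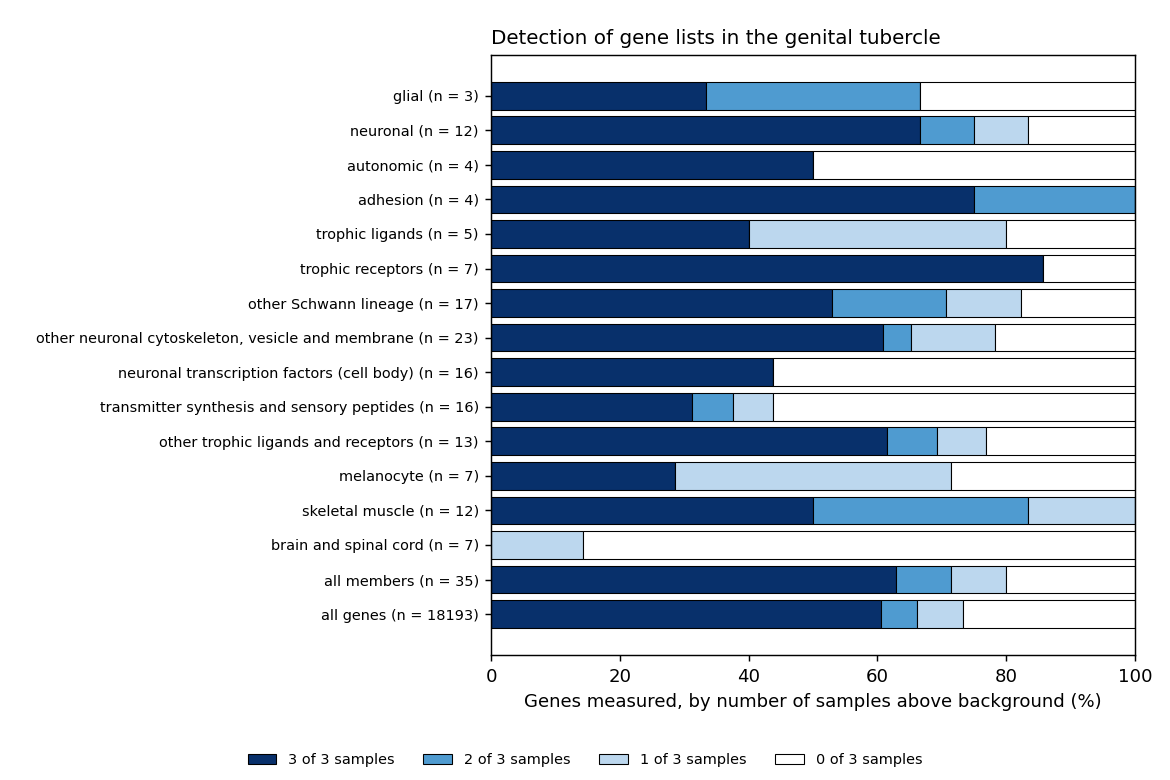
Share of measured genes (horizontal axis, percent) above background in 3, 2, 1 or 0 of the 3 samples for each list, with the number of genes measured in brackets. Trophic receptors reach 6 of 7 in every sample, brain and spinal cord genes 0 of 7, and the listed genes together lie near all genes.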

How the data were processed

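For every probe set the deposited values are intensities on a linear scale, 1 for each sample. Per the submitters' processing notes the authors used GCOS, and its version and algorithm are not given here. Per the labels' protocols RNA went through 2 rounds of amplification. With 2% trimmed from either end, each array's mean was 1500.0, a common scale of the deposited intensities. Of 45101 probe sets 64 controls were set aside. For a gene with several probe sets the one of highest mean over the samples was used. Signals were floored at 1 before log2, and samples were aligned on the median of 21612 probe sets above background in every sample. A fold against a sample below background is a lower bound on the aligned scale, from the lowest sample above background to the highest background, or own signal if higher, of the samples below it. Each sample was set against the others with limma 3.58.1 (lmFit and eBayes, two-sided, Benjamini-Hochberg) over the 29065 probe sets that exceeded background in any sample, tested on simulated data. Nothing says that the embryos came from separate litters, so p-values measure the spread between these samples. Every listed gene is named. Other genes are named from fixed lists, at most 5 a list by mean signal and those above background in no sample. The genes and lists were chosen with earlier results of these data known. Alternatives covered background, probe set, alignment, floor, filter, variance trend and leaving out each replicate.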

Additional observations from a re-analysis of the deposited data

How the results depend on the processing

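Counts of genes above background in every sample ranged from 20 to 23 around the 22 reported over background percentiles, leaving out replicates, any probe set above background, and leaving out _x_at probe sets, a choice made after seeing the data; requiring every probe set gave 7. For neuronal genes requiring every probe set gave 3 in place of 8, and for glial genes 0 in place of 1. Glial genes numbered 2 with background at the 90th percentile and 1 to 2 over the omitted replicates. The median SD ran from 0.23 to 0.32 over the omitted replicates and was 0.43 with alignment on all probe sets.

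List medians on the log2 scale moved with the alignment. With none, neuronal genes stood at -0.23 in replicate 1 and 0.47 in replicate 2. With alignment on all probe sets, replicate 1 had 0.97 for glial, 0.32 for neuronal, 0.43 for adhesion, 0.69 for ligand and 0.82 for receptor genes. Replicate 2 then had -0.031 for neuronal, 0.12 for adhesion, -0.69 for ligand and -0.52 for receptor genes. Limited to genes above background in every sample, replicate 2 had -0.66 for glial and 0.036 for ligand genes. Over omitted replicates the neuronal medians ranged from -0.23 to -0.13, 0.047 to 0.13 and -0.047 to 0.23 in replicates 1, 2 and 3. In replicate 2 they ranged from -0.52 to 0.12 for glial, -0.24 to 0.15 for ligand and -0.47 to -0.079 for receptor genes, in replicate 3 from -0.38 to 0.079 for receptor genes, and in replicate 1 from -0.25 to 0.35 for adhesion genes.

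Ncam2 had passed the filter through replicates 2 and 3 only and so had to differ in replicate 1. In limma alignment on all probe sets called Ncam2 there and no other listed gene. Under the other filters, the variance trend, the higher floor, no alignment and quantile normalization it called 0 in every contrast, as it did for replicates 2 and 3 throughout. Over all probe sets, where the main settings called 0, replicate 1 gave 511 with the filter on every sample, 557 with the trend and 144 with alignment on all probe sets, replicate 2 gave 251 with that alignment, and replicate 3 gave 86 with it and 1 with the filter. With a replicate left out a contrast has no residual degrees of freedom and was not tested. No paired analysis was possible because the samples form 1 group. The causes of these changes were not tested.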

Other observations

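Transmitter and sensory peptide genes were mostly below background, with 9 of 16 above it in no sample and 5 in every sample (31.25%). Of all 18193 genes, 60.5% were above background in every sample and 4867 genes in none. Tac1, the precursor of the sensory neuropeptide substance P, read 34089, 23561 and 19120 in replicates 1, 2 and 3, and 1 of its 2 probe sets exceeded background throughout. The others above background in every sample included Nos1, the neuronal nitric oxide synthase, at 820 ± 96.6 (SD, n = 3), the noradrenaline transporter gene Slc6a2 at 410.0 ± 81.9 and the decarboxylase gene Ddc at 361 ± 84.7. Nos1 and Slc6a2 each had 1 of 4 probe sets above background in every sample, and Ddc had 1 of 2. Htr3b, which encodes the partner subunit of Htr3a, read 1217, 494 and 326. It was highest in replicate 1, as Htr3a was, and the genes adjoin each other with 0 protein-coding genes between them in RefSeq's mouse annotation. The receptor gene Chrna3 and the vesicular transporter genes Slc18a2 and Slc18a3 were above background in no sample. The same held for Chat, Vip, Npy, Chga, Calcb and Trpv1.

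Other trophic factors and receptors had 8 of 13 genes above background in every sample, which at 61.5% was near the 60.5% of all genes. Ntf5, another ligand of Ntrk2, read 2294, 1455 and 1203 and was highest in replicate 1. Pspn, Erbb4 and Nrg3 were above background in no sample. Melanocyte genes, from another lineage of the neural crest, had 2 of 7 above background in every sample (28.6%). They were Kit at 634 ± 51.7 and Mitf at 566 ± 316 (SD, n = 3). The pigment genes Tyr and Mlana were above background in no sample. Dct, Tyrp1 and Pmel, chosen after their values were seen, exceeded background only in replicate 1, whose background was the lowest. Dct read 393, 197 and 164 and Tyrp1 136, 71.2 and 20.55, both highest in replicate 1. Pmel read 156, 204 and 105.5 and was highest in replicate 2.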
